A study of Mus musculus with 2 samples.

Results

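The 7 genes described here encode the structural proteins of the synaptonemal complex: Sycp1, Sycp2, Sycp3, Syce1, Syce2, Syce3 and Tex12. They were taken by name from a list, matched by gene identifier, and are 7 of the 43346 genes in the tables. Polyadenylated RNA of whole testis was sequenced from a single male of the inbred strain C57BL/6J at 10 weeks of age. From this animal 2 libraries were made, technical replicates 1 and 2, the latter at a later time per the labels. The labels name no treatment or mutation and no other animal, so no value below has a replicate across animals, and a difference between libraries is not a difference between conditions. Values are given in the order replicate 1, replicate 2.

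The synaptonemal complex is the protein zipper that holds paired homologous chromosomes together in meiotic prophase, when recombination takes place. Its lateral elements form along the chromosome axes and contain SYCP2 and SYCP3. SYCP1 dimers, the transverse filaments, reach from each axis to the midline, where SYCE1, SYCE2, SYCE3 and TEX12 build the central element. In male mice, loss of these proteins typically stops germ cells in meiosis. The genes are known for their expression in spermatocytes, 1 cell type among many in whole testis. In such bulk tissue fewer cells of a type and less RNA per cell cannot be told apart.

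The members differ in base composition, on which a later comparison turns. The middle 90 coding bases of the filament gene Sycp1, and of the central element genes Tex12 and Syce3, are shown as examples, read from the GENCODE M21 transcripts on GRCm38. They are coding bases 1444 to 1533 of Sycp1, 139 to 228 of Tex12 and 88 to 177 of Syce3, written 5′ to 3′ with G and C in capitals, of which there are 27, 30 and 45. Sycp1 and Syce3 are the extremes of the 7 genes in this stretch, where Sycp3 has 30, Sycp2 32, Syce1 34 and Syce2 40.
Sycp1: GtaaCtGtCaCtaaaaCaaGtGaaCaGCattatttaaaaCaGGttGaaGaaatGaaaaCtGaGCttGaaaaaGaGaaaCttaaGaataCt
Tex12: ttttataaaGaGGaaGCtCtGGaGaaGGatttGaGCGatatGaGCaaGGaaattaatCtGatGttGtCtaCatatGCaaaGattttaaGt
Syce3: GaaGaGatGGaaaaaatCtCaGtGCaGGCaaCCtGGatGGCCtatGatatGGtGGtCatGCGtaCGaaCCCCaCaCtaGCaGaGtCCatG

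The gene tables sum to 31995377 and 20675551 expected counts, which are estimated reads. Genes marking the tissue were present. Among spermatocyte markers outside the set, 6 of 6 were detected, meaning that each library had at least 1 TPM, and among spermatid markers 7 of 7. TPM is the level scaled for transcript length and depth. The highest spermatocyte marker by mean TPM was the testis lactate dehydrogenase Ldhc (2850.2 and 4131 TPM), and the highest spermatid marker was the protamine Prm2 (45.4 and 15928). Insl3 led the Leydig markers (83.2 and 1630.3 TPM) and Cldn11 the Sertoli markers (92.4 and 70.5), while Stra8 (21.7 and 17.2) and Dmrt1 (22.7 and 16.2) had the highest mean of the spermatogonial markers. Mrc1 led the macrophage markers (29.3 and 13.1 TPM), Cdh5 the endothelial (0.87 and 3.76), Rnase10 the epididymal (6.23 and 4.66, with Lcn5 and Lcn8 at 0) and Slc17a7 those of other organs (1.88 and 10.6). A leading gene does not give the direction of its list between libraries. Median TPM was 0.74 and 5.32 over the macrophage markers and 9.9 and 28.8 over the Sertoli markers. It was 5.1 and 7.1 over the spermatogonial and 64.1 and 96.6 over the Leydig markers.

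All 7 synaptonemal complex genes were detected, and each lay above most protein-coding genes in both libraries. Sycp3 stood at percentile 99.5 and 96.7 of protein-coding genes by TPM. The lowest positions were percentile 84.1 for Syce3 in replicate 1 and percentile 77.9 for Tex12 in replicate 2. The posterior SD of the gene count, the authors' measure of reads that could belong elsewhere, was 0 for each of the 7 genes in both libraries. Genes on the opposite strand overlap 3 of them: Chpt1 overlaps Sycp3 (260.8 and 123.5 TPM), Gcdh overlaps Syce2 (2.75 and 4.51) and Il18 overlaps Tex12 (5.55 and 1.82). The sources used here do not state whether counting used strand. The genes lie on 7 different autosomes.

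Sycp2 and Sycp3 are the axis genes. Sycp3 (ENSMUSG00000020059.5, chromosome 10, 88459569 to 88473236 on mm10, plus strand) encodes a fibre-forming protein of the axis. It was at 807 and 263 TPM from 16752 and 3468 expected counts. Sycp2 (ENSMUSG00000060445.7, chromosome 2, 178345293 to 178407685, minus strand), the larger axis protein that binds SYCP3, was at 381 and 112 TPM from 43898 and 8335 counts. Both were higher in replicate 1, by 3.07 times for Sycp3 and 3.41 times for Sycp2. Sycp3 was above Sycp2 in each library, by 1.08 and 1.23 on the log2 scale of TPM.

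Sycp1 (ENSMUSG00000027855.9, chromosome 3, 102818499 to 102936100, minus strand), the transverse filament gene, was at 403 and 105 TPM from 28444 and 4683 counts. It lay next to Sycp2 in both libraries, just above it in replicate 1 and just below it in replicate 2.

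The central element genes did not share 1 direction between libraries. Syce1 (ENSMUSG00000025480.4, chromosome 7, 140777229 to 140787852, minus strand) was at 305 and 359 TPM from 8440 and 6315 counts, the smallest relative difference of the set. Its TPM mean was 332 ± 38.4 (SD, n = 2 technical libraries). Syce2 (ENSMUSG00000003824.8, chromosome 8, 84872111 to 84888221, plus strand), whose protein forms fibres with TEX12, was at 355 and 244 TPM from 4921 and 2358 counts.

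Syce3 (ENSMUSG00000078938.5, chromosome 15, 89390174 to 89410503, minus strand) encodes a small protein needed for loading the other central element proteins. It was at 38.0 and 169.7 TPM from 224 and 632 counts, and was 4.47 times higher in replicate 2. Tex12 (ENSMUSG00000032065.5, chromosome 9, 50556819 to 50561325, minus strand) was at 119 and 31.5 TPM from 1112 and 189 counts. It was 3.79 times higher in replicate 1, as the axis genes were. The exact Poisson 95% interval, which covers counting error only, was widest, relative to the level, for these last genes. It ran from 33.2 to 43.3 TPM for Syce3 in replicate 1 and from 27.2 to 36.4 TPM for Tex12 in replicate 2.

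**Figure D1:**
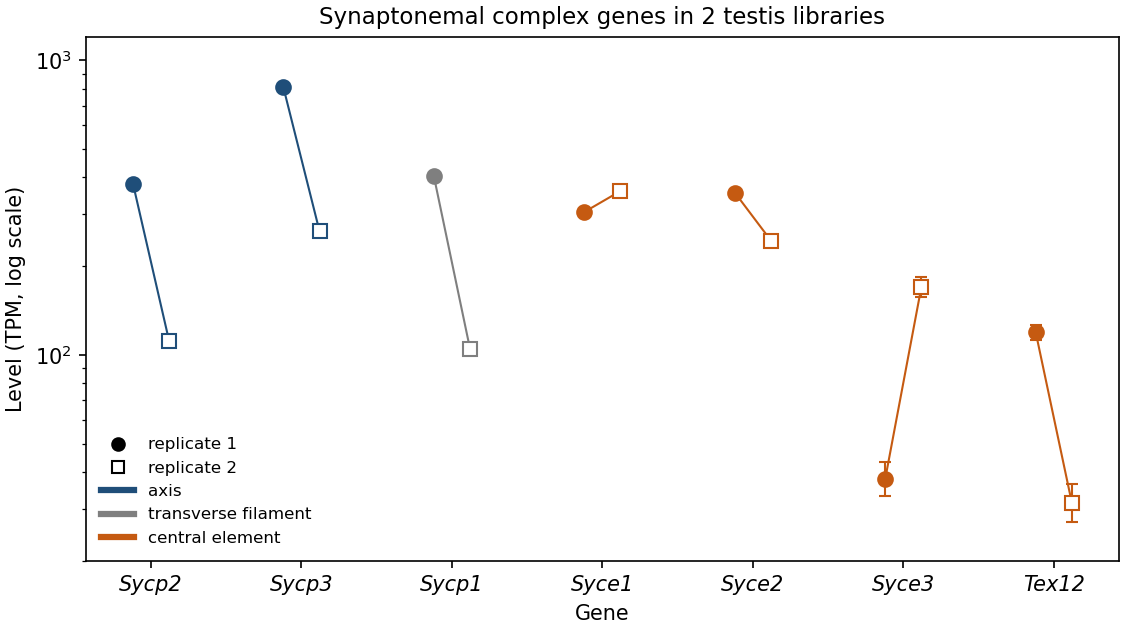
TPM of each gene (log scale) in replicate 1 (filled circles) and replicate 2 (open squares), joined by a line, with exact Poisson 95% intervals and colours by place in the complex. Sycp2, Sycp3, Sycp1 and Tex12 fall steeply from left to right, Syce3 climbs from 38.0 to 169.7 TPM, and Syce1 and Syce2 stay between 244 and 359 TPM.

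The order of the 7 genes by TPM was therefore not the same in both libraries. In replicate 1 it ran Sycp3, Sycp1, Sycp2, Syce2, Syce1, Tex12, Syce3, with all axis and filament genes above all central element genes and a 21.3-fold range. In replicate 2 it ran Syce1, Sycp3, Syce2, Syce3, Sycp2, Sycp1, Tex12, with a range of 11.4-fold. Each of the 21 pairs was compared by its TPM ratio with an exact Clopper-Pearson 95% interval in each library. The interval excluded equality in both libraries for every pair, but only 11 pairs had the same order in both, and 10 were reversed. Of the 8 pairs of an axis gene with a central element gene, 4 kept their order and 4 reversed. Sycp3 was above Syce2, Syce3 and Tex12 in both libraries, and Sycp2 was above Tex12. Sycp3 against Syce1 was reversed, at 1.40 and -0.45 on the log2 scale, and so was Sycp2 against Syce1, Syce2 and Syce3. Among central element genes, 4 of 6 pairs kept their order, and Syce3 against Tex12 had the widest reversal, at -1.65 and 2.43. For pairs whose order changed between libraries, such as the neighbours Sycp2 and Sycp1 (-0.08 and 0.09), these 2 libraries do not settle an order.

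The axis and the central element were also compared as sums. The summed TPM of Sycp2 and Sycp3 was 1189 and 374, and that of the 4 central element genes was 818 and 805. The axis sum was thus 1.45 times the central element sum in replicate 1 and 0.465 times in replicate 2, or 0.54 and -1.10 on the log2 scale. The mean log2 ratio was -0.28 ± 1.16 (SD, n = 2 technical libraries), so its sign is not fixed by these libraries. The central element sum was nearly equal in both libraries, with Syce3 and Syce1 higher by TPM in replicate 2 and Syce2 and Tex12 lower there.

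On expected counts, which are not scaled for length, the axis held more reads in both libraries. The log2 ratio of the axis sum over the central element sum was 2.05 and 0.31. The transcripts differ in length, from 5717 bases for the leading Sycp2 transcript to 448 bases for that of Syce3. Sycp2 alone took 42.3% and 32.1% of the counts of the 7 genes but 15.8% and 8.69% of their TPM. By medians over members in place of sums, the TPM ratio was 1.49 and -0.15 on the log2 scale.

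**Figure D2:**
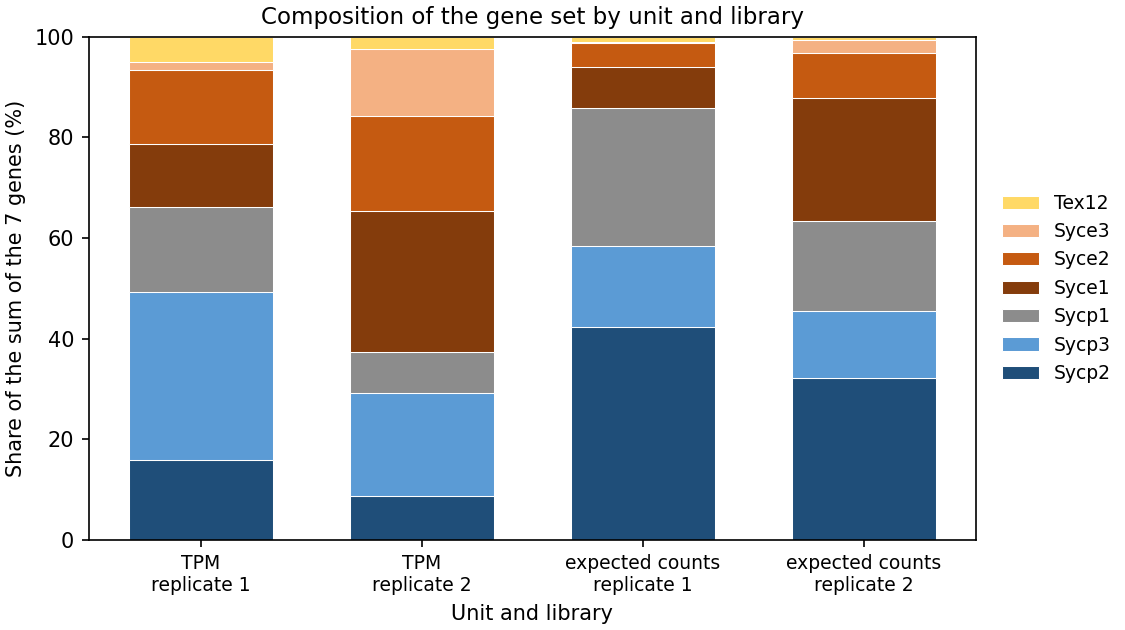
Share of each gene in the sum over the 7 genes (percent), from TPM (left pair of bars) and from expected counts (right pair), in each library. Sycp3 goes from 33.5% to 20.5% of the TPM and Sycp2 from 42.3% to 32.1% of the counts, while Syce1 grows from 12.7% to 28.0% of the TPM.

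Transcript shares could be compared only for the genes with more than 1 transcript, which were Sycp2, Sycp3, Syce2 and Syce3. IsoPct, the percent of a gene's TPM assigned to 1 transcript, is 100 by construction for Sycp1, Syce1 and Tex12, which have 1 transcript in the tables. Among the axis genes, the full-length Sycp2-201 (44 exons) held 95.4% and 97.8% of Sycp2. Sycp3-201 (9 exons, 1139 bases) held 83.1% and 86.3% of Sycp3, and Sycp3-203 held 16.7% and 13.7%. In Sycp3-203 the last exon runs from 88472676 to 88473236, so it keeps the last intron of Sycp3-201, and its coding sequence has 744 in place of 762 bases. Both axis genes thus gave similar shares in both libraries.

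Syce2 was the gene with the most divided level. The coding Syce2-204 (929 bases) held 51.9% and 52.9%, at 184 and 129 TPM. Syce2-201, which the annotation marks as a target of nonsense-mediated decay, held 46.6% and 36.5%, at 166 and 89.2 TPM. Besides small differences at its ends and in exon 2, Syce2-201 lacks the 154 base exon at 84883431 to 84883584 that Syce2-204 has as its exon 3. Syce2-202, a coding form with a last exon of 1087 bases, held 1.44% and 7.64%. Protein-coding transcripts made up 53.4% and 60.6% of Syce2, against 98.1% and 98.2% of Sycp2 and 99.9% and 100% of Sycp3. The coding part of Syce2 was 189.6 and 147.9 TPM.

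Syce3 had the largest change of share between libraries. Syce3-201 held 65.4% and 91.99%, and Syce3-202 held 34.6% and 8.01%. The forms have the same coding length (264 bases) and differ in the first exon, at 89410191 to 89410263 in Syce3-201 and 89410399 to 89410503 in Syce3-202. Syce3-201 went from 24.8 to 156 TPM (141 and 576 counts, posterior SD 14.6 and 9.78), while Syce3-202 was at 13.1 and 13.6 TPM (83.4 and 56.1 counts, with the same posterior SDs). By this assignment of reads, the library difference of Syce3 lay in Syce3-201. The forms share exons 2 and 3, so the split rests on reads that touch first exons of 73 and 105 bases. The first exon of Syce3-201 has a GC content of 74.0%, against 61.0% for that of Syce3-202. The cause of the changed share was not tested.

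**Figure D3:**
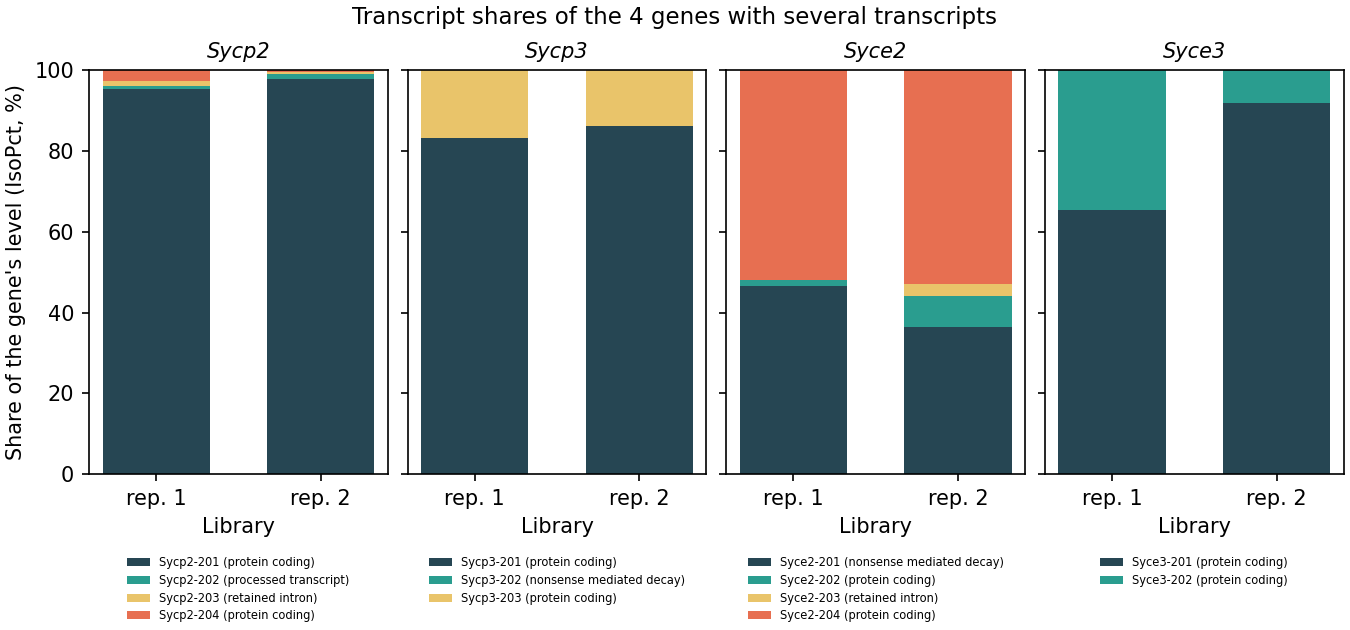
IsoPct (percent of the gene's TPM) of each transcript of the 4 genes with several transcripts, as stacked bars, in replicate 1 (left bar of each panel) and replicate 2 (right bar). Sycp2-201 and Sycp3-201 hold over 83% in both libraries, Syce2 is divided between Syce2-204 and Syce2-201, and Syce3-201 goes from 65.4% to 91.99%.

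The libraries were compared gene by gene on expected counts scaled by TMM, by a two-sided binomial test, exact and conditional on each gene's total, and Benjamini-Hochberg adjustment over 18589 genes. It speaks of the reads of this pair of libraries alone. Genes whose adjusted p was under 0.05 and whose libraries differed at least 2-fold were called, and 55.8% of all tested genes were called. Of those calls 57.5% were higher in replicate 2, or 70.3% when scaled by plain totals, which moves the median of all genes to 0.29. All 7 genes passed the count filter and 5 were called, a share to be read against that background. Higher in replicate 1 were Sycp1, Tex12, Sycp2 and Sycp3, 4 of 7 against 23.7% of all genes. Higher in replicate 2 was Syce3, 1 of 7 against 32.1%. The log2 ratio of replicate 2 over replicate 1 was -2.26 for Sycp1 (95% interval -2.31 to -2.22), -2.22 for Tex12 (-2.45 to -2.00), -2.06 for Sycp2 (-2.09 to -2.03) and -1.93 for Sycp3 (-1.99 to -1.88). Syce3 was at 1.83 (1.61 to 2.06, adjusted p = 1.68e-68 by this binomial test). Syce2 (-0.72, -0.80 to -0.65) and Syce1 (-0.08, -0.13 to -0.03, but 0.21 when scaled by plain totals) did not reach the ratio limit. The median of the 7 genes was -1.93 and that of all tested genes was -0.003.

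The GC content of the transcripts moved with these ratios. The leading transcripts of Sycp1, Tex12, Sycp2 and Sycp3 have 34.6%, 35.8%, 36.4% and 37.4% GC, at or below percentile 2.2 of tested genes. Those of Syce1, Syce2 and Syce3 have 49.5%, 53.0% and 54.5%, at percentiles 52.2, 69.9 and 77.3. Tex12 thus has the lowest GC content of the 4 central element members. The contrast was larger at the third codon position, where GC was 30.6% in Sycp1, 30.9% in Sycp2, 35.4% in Sycp3 and 40.7% in Tex12, against 62.0% in Syce1, 67.2% in Syce2 and 68.2% in Syce3.

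Across the 7 genes, GC content and log2 ratio had a Spearman rho of 0.96 and a Pearson r of 0.90, given as a description over points that share the same libraries. Over 18404 tested genes with a known GC content rho was 0.89. In a comparison with GC correction, the expected ratio of a gene was set to the median of genes of similar GC content, in 100 bins of about 184 genes. The corrected log2 ratios were -0.27 for Sycp1, -0.22 for Sycp2, -0.22 for Sycp3, -0.22 for Tex12, -0.19 for Syce1 and 0.02 for Syce3. None of these 6 reached the ratio limit, although the adjusted p of Sycp1, Sycp2, Sycp3 and Syce1 stayed under 0.05. The exception was Syce2, at -1.86, the only gene of the 7 called after correction, where 19.6% of all genes were called in either direction and 8.72% as higher in replicate 1. Genes in its GC bin had a median of 1.14 and Syce2 was at -0.72, with 5 of 184 genes lower. With GC averaged over the transcripts by their TPM, an alternative chosen after seeing the data, Syce2 was at -1.53. By transcript, the uncorrected log2 ratio was -1.19 for Syce2-201, -0.82 for Syce2-204 and 1.54 for Syce2-202. The part of GC content in the library differences was not tested. Spermatid markers also moved with the libraries, with 4 of 7 called higher in replicate 2 (32.1% of all genes), 1 of 7 higher in replicate 1 (23.7%) and summed levels of 6195 and 47150 TPM, most of it from Prm1, Prm2, Tnp1 and Tnp2. After GC correction 2 of 7 were called higher in replicate 2 and 1 of 7 higher in replicate 1, and their median log2 ratio went from 1.46 to 0.29. The summed spermatocyte markers were at 5154 and 5862 TPM, most of it from Ldhc and Pgk2, while the median of these markers was 446.8 and 257.1 TPM. By calls, 0 of 6 were higher in replicate 2 and 2 of 6 higher in replicate 1, read against the same shares of all genes. After GC correction 0 of 6 were called. The part of cell makeup was not tested. For Tex12 the GC content is that of an 895 base model in M21, while the deposited model has 617 bases.

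**Figure D4:**
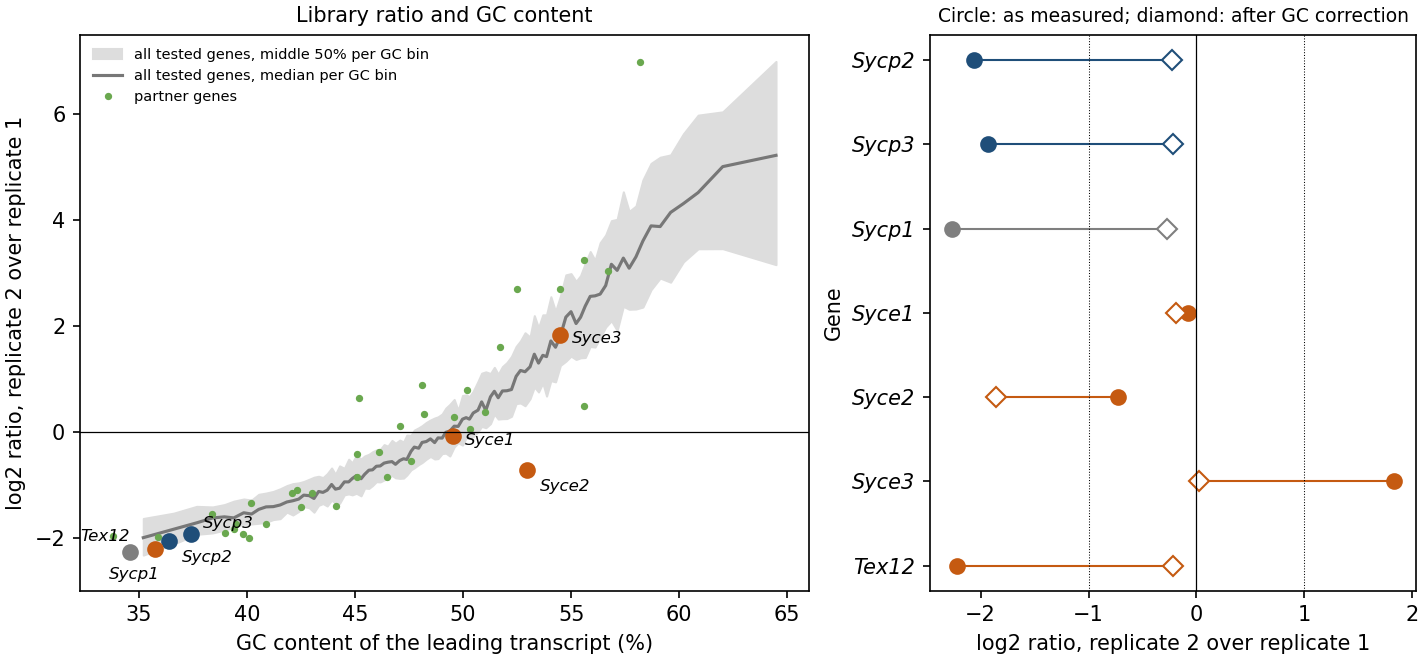
Left, log2 ratio of replicate 2 over replicate 1 against GC content of the leading transcript (percent) for the 7 genes (large points, coloured by place in the complex as in the plot of levels), the partner genes (green) and all tested genes (grey line, median per GC bin, with the middle 50% as a band). Right, the ratio of each gene as measured (circles) and after GC correction (diamonds), with dotted lines at the 2-fold limit. The diamonds of 6 genes lie between -0.27 and 0.02, and Syce2 lies at -1.86.

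The 250 bases before the annotated starts were searched for short motifs on both strands. The table, from RefSeq on GRCm38.p6, held all 7 genes, with 2 starts each for Syce2 and Syce3. A gene counts below if any of its starts holds the motif, while the shares beside it are of single promoters. All matches in Syce2 lie at the same 1 of its 2 starts. They fall within the first exon of the leading Syce2-204 (84872111 to 84872253). The window that ends just before the start of Syce2-204 held no match. The E-box CACGTG, which proteins such as MAX and MGA bind, was present in 4 of the 7 genes (Sycp1, Sycp3, Syce2 and Tex12), while 6.0% of 32851 promoters hold it. Among the 12417 promoters with at least 10 CpG pairs the share is 9.4%. The E2F-type motif TTCCCGC was present in 3 genes (Sycp3, Syce2 and Tex12), against 3.8% of all promoters and 8.3% of those with at least 10 CpG pairs. CNCCTCAG, a motif described for the meiotic factor STRA8, was present at 1 start, in Syce2, against 6.4%. There it overlaps the E2F-type match. CCAAT and TATAAA each matched 1 gene, Syce3, but at different starts, against 33.8% and 12.4%. No motif of this list was found in the windows of Sycp2 and Syce1. A match is a description of letters and not a site of binding. The stretches from 160 to 36 bases before the start of 3 genes with an E-box are shown 5′ to 3′ on the gene's strand, with motif matches in capitals (GCGGGAA is TTCCCGC read on the other strand). They lie at chr10:88459427-88459551 (Sycp3, plus strand), chr3:102936136-102936260 (Sycp1, minus strand) and chr9:50561304-50561428 (Tex12, minus strand) on GRCm38.
Sycp3: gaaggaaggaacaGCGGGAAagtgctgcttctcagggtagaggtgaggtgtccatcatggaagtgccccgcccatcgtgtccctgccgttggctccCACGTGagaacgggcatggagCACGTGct
Sycp1: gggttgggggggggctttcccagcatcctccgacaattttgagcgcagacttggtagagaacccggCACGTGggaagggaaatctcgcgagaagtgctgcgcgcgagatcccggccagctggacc
Tex12: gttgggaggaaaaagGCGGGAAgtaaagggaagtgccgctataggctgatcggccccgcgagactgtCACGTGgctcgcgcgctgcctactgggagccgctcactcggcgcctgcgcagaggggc

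In these windows Sycp3 carries an E2F-type match upstream of 2 E-boxes. Tex12 has 1 match of each kind in the same order, and Sycp1 has a single E-box.

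The partner list holds 40 genes that act with the complex in axis formation, synapsis and crossing over, and 36 were matched to the tables. Of these, 33 were detected and 22 of 36 tested were called (61.1%, against 55.8% of all genes). Higher in replicate 1 were 16 of 36, against 23.7% of all genes, and higher in replicate 2 were 6 of 36, against 32.1%. The median log2 ratio of the 36 was -0.70, against -0.003 for all tested genes. The 6 of highest mean TPM were the cohesin Stag3 (392 and 337 TPM), the axis protein gene Hormad1 (502 and 157), the meiotic cohesin Smc1b (313 and 103), Psmc3ip, a helper of strand exchange (95.6 and 139), Tex15 (169 and 59.0) and 4930447C04Rik, also named Six6os1 (113 and 35.0). Six6os1 encodes a further central element protein. Its level was close to that of Tex12 in both libraries, and its log2 ratio was -1.97 at a GC content of 33.8%. After correction it stood at 0.03.

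The other partner genes called higher in replicate 1 were Hfm1, Meiob, Terb1, Msh4, Mlh3, Dmc1, Tex11, Ccnb1ip1, AI481877 (also named Shoc1), Terb2, Rad21l and Mei4. Their log2 ratios ran from -2.00 for Meiob to -1.10 for Ccnb1ip1. Those called higher in replicate 2 were Ccdc155, also named Kash5 (6.99), 4930432K21Rik, also named Brme1 (3.25), the meiotic cohesin Rec8 (3.04), Mei1 (2.71), Fkbp6 (2.70) and Sun1 (1.61). The called genes with higher values in replicate 1 had at most 44.1% GC, and those with higher values in replicate 2 at least 51.7%. This separation is not read as a trait of the partner genes. Over all tested genes GC content and log2 ratio had a Spearman rho of 0.89. The median over all genes was -1.08 in the GC bin at 44.1% and 0.77 in the bin at 51.8%. After GC correction 5 of 36 were called, where 19.6% of all genes were, and with GC weighted over transcripts 2 of 36 were. The 5 were Ccdc155 (3.39), Fkbp6 (1.65), Rec114 (1.47) and Msh5 (1.08) as higher in replicate 2 and Gm960, also named Top6bl (-1.89), as higher in replicate 1.

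Relatives of the 7 genes were expressed at lower levels than the genes they resemble. Sycp2l, the relative of Sycp2, had 4 and 2 counts (0.39 and 0.28 TPM). Syce1l was at 5.16 and 43.2 TPM, below Syce1 in both libraries, and was called higher in replicate 2 (log2 ratio 2.69, GC content 55.9%). The relatives of Sycp3 are X- and Y-linked genes, most of them in many near-identical copies, so their separate levels are uncertain. The Y-linked Sly was the highest, at 77.2 and 22.9 TPM with a posterior SD of 25.3 on 908 counts in replicate 1, and Slxl1 was at 26.7 and 13.7 TPM. Slx had 4 counts and 1 count. The genes Xlr, Xlr3a, Xlr3b, Xlr3c, Xlr4a, Xlr4b, Xlr4c, Xlr5a, Xlr5b and Xlr5c lay between 2.23 and 10.96 TPM in replicate 1 and between 1.08 and 4.50 TPM in replicate 2. Of the 15 relatives 13 were tested and 12 called, 11 of them higher in replicate 1, where 55.8% of all genes were called and 23.7% as higher in replicate 1. After GC correction 0 of the 13 were called, against 19.6% of all genes.

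The protein-coding gene nearest to each of Sycp2, Sycp1, Sycp3, Syce2, Syce3 and Tex12 in the plane of log2(TPM + 1) in both libraries was found as a measure of like level over these 2 libraries. It was Hcfc2 for Sycp2 and for Sycp1 (346 and 111 TPM), Ms4a14 for Sycp3 (742 and 262), Smap1 for Syce2 (371 and 247), Naa38 for Syce3 (37.5 and 173) and Mybl1 for Tex12 (113 and 32.0). These distances ran from 0.036 for Syce3 to 0.236 for Sycp1.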

How the data were processed

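PolyA RNA sequencing tables of 2 technical libraries of 1 testis were used. The authors deposited, per gene and transcript on mm10 with annotation M4, expected counts (estimated reads), TPM, FPKM and, for transcripts, IsoPct as a percent. They also deposited posterior means and SDs. For aligner, quantifier and strand setting, nothing is stated (not given in the sources used here). Names and positions came from GENCODE M21 on the same assembly, for 42462 of 43346 genes.

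Expected counts were rounded, genes with a mean of 10 or more were kept, and TMM factors came from edgeR 4.0.16 (R 4.3.3). An exact conditional binomial test per gene compared the libraries, in Python 3.11.15 with scipy 1.17.1. It was also run on simulated Poisson counts, which had no GC trend and no spread beyond counting error. That check therefore does not cover the GC trend of these libraries. GC correction subtracted the median log2 ratio of each of 100 GC bins. DESeq2 1.42.0 size factors, other limits, other units and leaving out a library were alternatives. Intervals cover counting error only.

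The members and lists were chosen with earlier results of these data known. Named were all members, their transcripts at 5% or more, all relatives, partner genes called or among the 6 highest, the nearest gene of each member (that of Syce1 is not reported here) and the highest marker of each type. Rec114, Msh5 and Gm960, called only after GC correction, and the genes overlapping members were named after their values were seen. Of 40 partner genes, Ankrd31, Spata22, Rnf212b and Spo16 were not matched. For the last pair, aliases first written down were dropped as wrong.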

Additional observations from a re-analysis of the deposited data

How the results depend on the processing

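With 2 technical libraries of 1 animal, no spread between animals is known, and the library comparison could not be run without a replicate. No paired analysis was possible because there is 1 group. Shares of the summed level, as means of both libraries, moved from TPM to expected counts from 12.3% to 37.2% for Sycp2, 26.98% to 14.7% for Sycp3, 12.5% to 22.7% for Sycp1, 16.9% to 6.91% for Syce2, 7.40% to 1.32% for Syce3 (within its SD of 8.23 between libraries) and 3.70% to 0.90% for Tex12. Syce2 was at 10.5% with protein-coding transcripts only. The mean log2 ratio of axis over central element, -0.28 by TPM, turned to 1.18 by expected counts and 0.67 by medians. It ran from -1.10 to 0.54 when either library was left out. With protein-coding transcripts only it was -0.04 (0.86 and -0.93 in replicates 1 and 2). With Sycp1 added to the central element genes it was -0.66 (-0.04 and -1.28), so the sign in replicate 1 depends on where Sycp1 is placed. Ordered pairs went from 11 to 18 by expected counts, where length enters by construction. Syce2-204 held 58.3% and Sycp2-201 99.3% by counts.

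With plain totals 2845 genes were called higher in replicate 1, in place of 4408, and Syce1 turned to 0.21. At a ratio limit of 4, 3876 and 501 genes were called higher in replicates 2 and 1, with 0 and 3 members and 5 and 1 partner genes. After GC correction these were 1996 and 1604 genes, 0 and 1 members, and 4 and 1 partner genes. With GC weighted over transcripts, chosen after seeing the data, they were 1796 and 1550 genes, 0 and 1 members, and 2 and 0 partner genes. Detected genes went from 13778 to 8907 at 5 TPM. Beyond what the changed unit, limit or scaling does by construction, the cause was not tested. A tally was made over alternatives of member shares, the axis ratio, ordered pairs, numbers of called or detected genes and transcript shares. In it 115 values stayed within 1 SD or, for counts, within 1.5 times the reported count, 26 moved further and 3 reversed. Counts within that range still changed, as at a ratio limit of 1.5, where Syce2 was also called. Some of the values that stayed could not move. Shares and ratios by FPKM equal those by TPM by construction. With 2 libraries, leaving 1 out cannot shift a mean by more than 1 SD. The tally is therefore not a measure of stability. It leaves out the library ratios of single members, of which 54 were marked as the same, 12 as weaker, 3 as stronger and 1 as reversed.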
